A study of Danio rerio with 4 samples.

Results

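The genes described here encode the FGF, BMP and TGF-beta signalling system of the zebrafish: secreted ligands, their receptors, the Smad proteins that carry the signal and the secreted inhibitors noggin and chordin. They were taken by gene symbol, as every gene on the array whose name begins with the root of one of these families (fgf and fgfr, bmp and bmpr, gdf, tgfb, inhb, acvr, smad, nog and chrd). The array named 97 such genes, and 88 had a probe well above background on at least 2 of the 4 arrays, among 12332 of 13366 named genes of the whole array that passed the same filter. The names also caught 6 genes that are neither ligands, receptors, Smads nor noggin or chordin genes (bmp1a, bmp1b, bmp2k, fgfr1op2, tgfbi and tgfbrap1), and these are kept apart as matched by name only.

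Whole zebrafish embryos were exposed to 3.9 µM copper or to 0 µM copper (control) after spawning, and total RNA was taken at 24 and 96 hours post fertilization (hpf). Each of the 4 combinations, copper at 96 hpf, control at 96 hpf, copper at 24 hpf and control at 24 hpf, was measured on 1 one-colour Agilent array. The labels name no strain or genotype and do not say how many embryos went into an RNA sample or whether the samples came from separate spawnings. In RNA of whole embryos, fewer cells of a type and less RNA per cell cannot be told apart.

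FGF ligands bind receptor tyrosine kinases at the cell surface and act mainly through the MAP kinase cascade. They pattern the boundary between midbrain and hindbrain, the ear, the fin buds and the tail of the embryo, while a separate group of FGF proteins stays inside the cell. BMP, GDF, activin and TGF-beta ligands bind pairs of type I and type II serine/threonine kinase receptors, which phosphorylate Smad proteins that then enter the nucleus. BMPs are best known in the zebrafish for setting the ventral side of the early embryo against chordin and noggin, and later for roles in fins, eye, heart and skeleton.

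Values are log2 of the quantile-normalized array signal, and each gene is given by the detected probe with the highest mean signal. Between 76.9% and 83.6% of probes were well above background on each array, and no spot was saturated. Probes differ in how brightly they bind, so levels are compared between arrays for 1 probe and not between genes. The names of the deposited data files give the opposite treatment to the sample labels at both ages. In the authors' deposited table all 5555 compared probes at 24 hpf and all 2964 at 96 hpf have the sign opposite to the difference computed here. The groups follow the sample labels, and every copper difference below would change sign if the file names were right. The metallothionein gene mt2, which copper is known to induce, differed by less than 2-fold at both ages, with 14.26 in copper embryos and 13.71 in control embryos at 96 hpf and 13.19 in copper embryos and 13.17 in control embryos at 24 hpf. Markers of neurons, muscle, epidermis and red blood cells were well above background on the arrays, as whole embryos should give. At 96 hpf several tissue markers differed between the arrays: all 10 detected exocrine pancreas genes were more than 2-fold higher with copper (summed signal 185228 in copper embryos and 5865 in control embryos), as were all 5 photoreceptor genes (405265 in copper embryos and 146254 in control embryos). At 96 hpf 3 of 5 hatching gland genes were more than 2-fold lower with copper (summed signal 6772 in copper embryos and 31711 in control embryos), and so were 3 of 5 cell cycle genes (15980 in copper embryos and 31489 in control embryos) and 2 of 3 red blood cell genes (92366 in copper embryos and 151232 in control embryos). The other genes of these lists were lower by less than 2-fold, except klf17 of the hatching gland, which was higher by 0.55 on the log2 scale.

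By the brightest probe of each of the 88 genes, 73 were well above background on all 4 arrays, 3 on 3 arrays (fgf6a, gdf11 and smad4a) and 12 on exactly 2. Just inside the filter were bmp7a, bmp15, fgf3, fgf17, fgf18a, fgf22, fgfr1b, gdf9 and smad10a, well above background at 24 hpf only, and chrdl2, fgf12a and fgf23, well above background at 96 hpf only. The other fgf17 probe was well above background on 3 arrays. Just outside were 9 genes, of which gdf6b was well above background on 1 array, the copper array at 24 hpf (4.11). The other 8 (bmp10, fgf5, fgf6b, fgf7, fgf18b, gdf2, nog5 and tgfbr1b) were well above background on none.

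The comparison of the ages asked which of these genes differ between larvae at 96 hpf and embryos at 24 hpf, with copper as a second term in the model. The ligand genes fgf17, fgf18a, fgf3, fgf8a, fgf10b, bmp7a and gdf11 were lower at 96 hpf. So were the receptor genes bmpr1ba and fgfr4 and the Smad genes smad5 and smad10a. Higher were 2 intracellular FGFs, the hormone gene fgf23, the noggin gene nog3, the activin gene inhbab and the receptor genes bmpr2b and acvrl1. The other genes that passed were matched by name only. Several of these calls, that of fgf3 among them, were lost under other settings given below. By their brightest probe fgf17, fgf18a, fgf3, bmp7a and smad10a passed the filter through the 24 hpf arrays alone. The fgf12a and fgf23 genes passed through the 96 hpf arrays alone, and the filter favours the direction that such genes show. Where a bound is given below, the p-value tests the difference of the means, dim arrays included, and not the bound. In all, 9 of the 88 genes (10.2%) rose and 12 (13.6%) fell at an adjusted p under 0.05, against 17.3% of all 12332 genes higher and 15.1% lower. The share that passed in either direction was 23.9%, against 32.4% of all genes, so these families did not pass the age test more often than the array as a whole. Their median difference was −0.21 on the log2 scale, beside −0.10 for all genes, and that of the families turned to 0.10 when arrays were scaled to their 75th percentile. The p-values come from limma over all 36026 detected probes with 1 residual degree of freedom, that is, by how much the copper difference at 96 hpf departs from that at 24 hpf. The spread of each probe was pooled with that of probes of like brightness (eBayes with trend, median of 9.19 prior degrees of freedom). The p-values therefore rest mostly on a spread shared over probes, all of it from these 4 arrays with no replicate of a group.

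**Figure D1:**
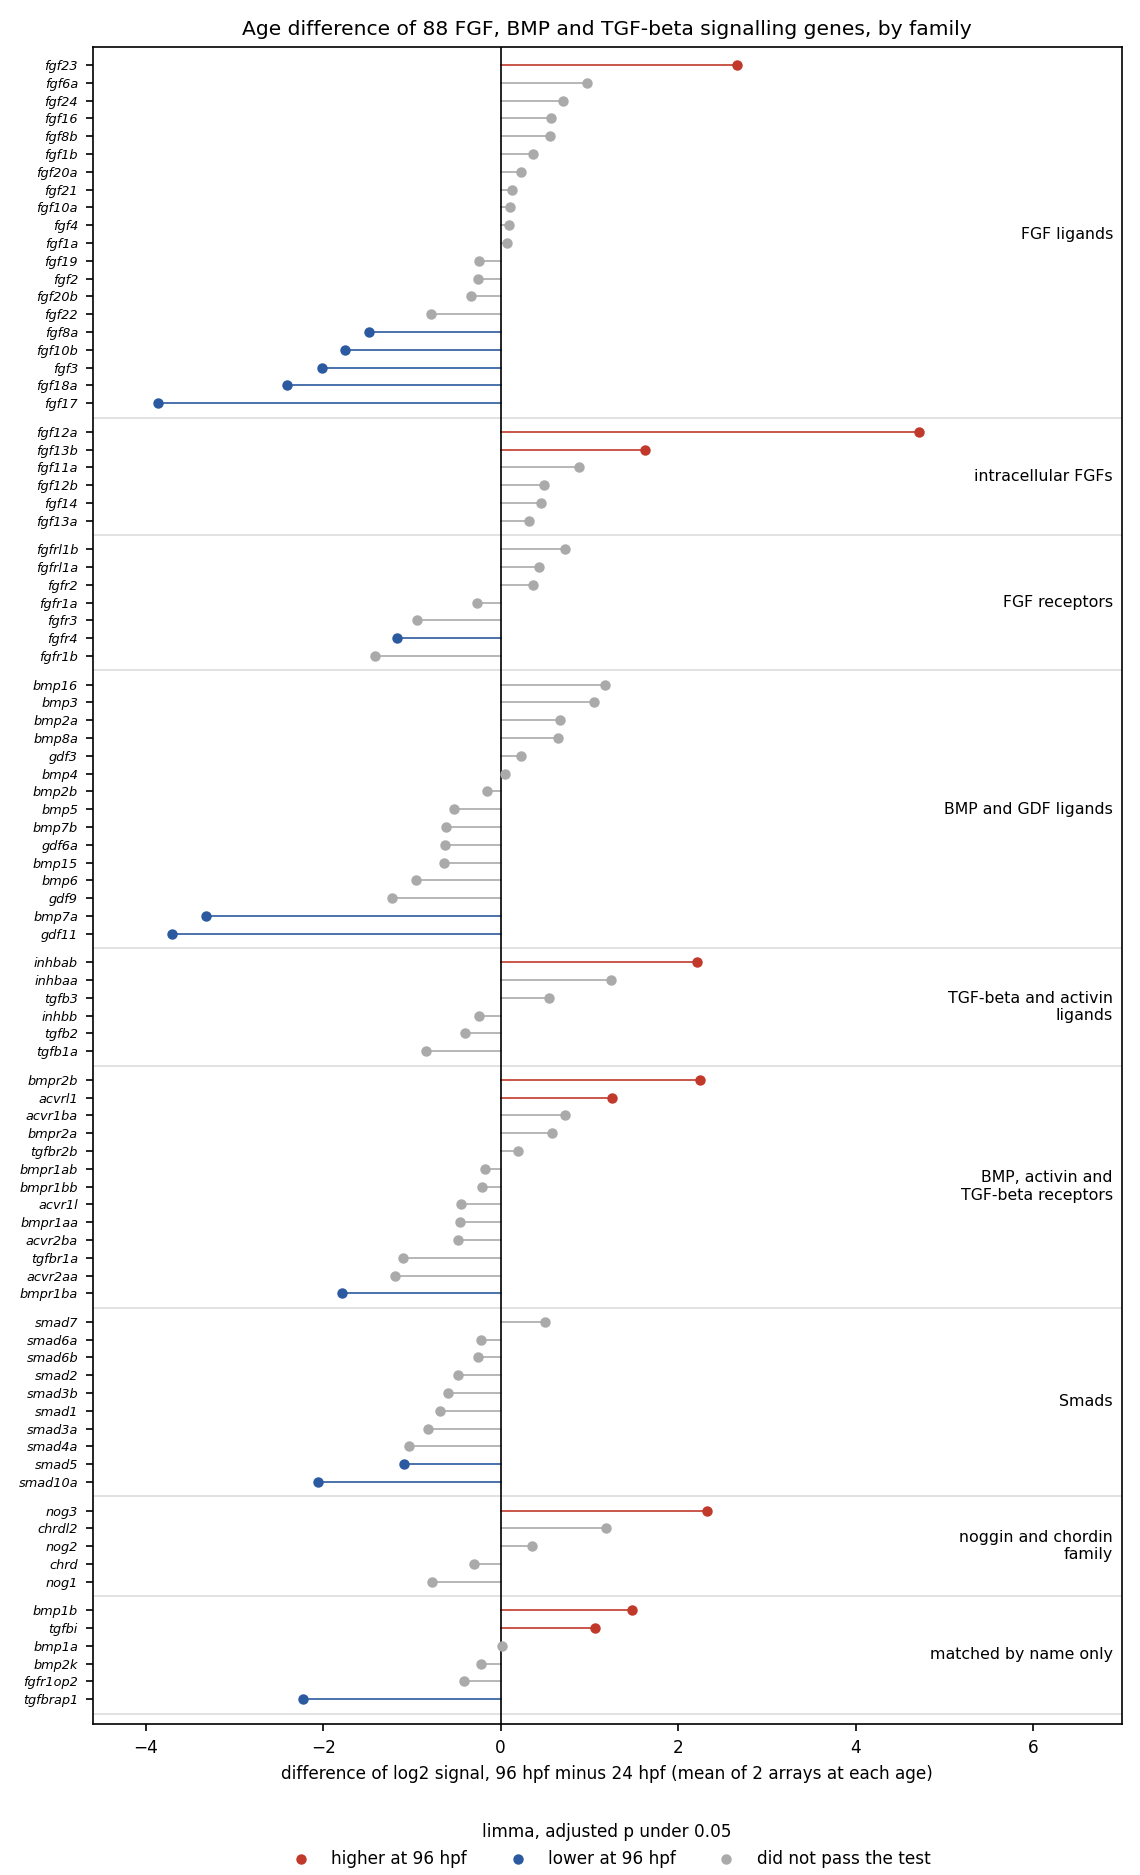
Age difference (log2, 96 hpf minus 24 hpf, mean of 2 arrays at each age) of each of the 88 genes, grouped by family, with red for genes higher and blue for genes lower at an adjusted p under 0.05 in limma and grey for genes that did not pass. The points run from −3.86 for fgf17 to 4.72 for fgf12a, and all 6 intracellular FGFs lie above 0 while 9 of 10 Smads lie below it. Among all 12332 genes 5643 lie above 0 and 6689 below.

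Among the 20 detected FGF ligand genes, 5 fell (25%, against 15.1% of all genes) and 1 rose (5%, against 17.3%) with age. By their brightest probes fgf17, fgf18a and fgf3 passed the filter through the 24 hpf arrays alone. The 1 gene that rose, fgf23, passed it through the 96 hpf arrays alone. The filter favours these directions, so the shares are not read as a trait of the family. The gene fgf17, a relative of fgf8 known from the midbrain-hindbrain boundary, had 4.27 in copper embryos and 3.62 in control embryos at 96 hpf, against 7.70 in copper embryos and 7.91 in control embryos at 24 hpf. Both 96 hpf arrays were not well above background and the ages did not overlap. By this probe the level was thus at least 11.2-fold lower at 96 hpf (log2 means 3.94 at 96 hpf and 7.80 at 24 hpf, adjusted p = 0.00051), a bound set against the weakest signal that counts as above background. The other fgf17 probe, well above background on 3 arrays, gave a smaller difference, −3.14 on the log2 scale. With normexp background correction the difference was −1.79 (adjusted p = 0.00127), also smaller than the bound. That correction adds an offset of 50 to every signal, which shrinks log2 differences of dim probes. For dim genes, here and below, a normexp difference under the bound therefore does not test the bound.

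The fgf18a gene, of the same subfamily, had 3.19 in copper embryos and 3.10 in control embryos at 96 hpf, both not well above background, against 5.46 in copper embryos and 5.64 in control embryos at 24 hpf, at least 2.36-fold lower at 96 hpf (adjusted p = 0.00847). Under normexp background correction fgf18a differed by less than this bound, −0.65 on the log2 scale (adjusted p = 0.0191). For fgf3, needed with fgf8a to induce the ear, the signals were 2.07 in copper embryos and 3.68 in control embryos at 96 hpf, again not well above background, and 4.72 in copper embryos and 5.08 in control embryos at 24 hpf. That made fgf3 at least 1.49-fold lower at 96 hpf (adjusted p = 0.0266). Fits without an array also leave out the copper term, which 3 arrays cannot hold beside age. In such fits the call for fgf3 was lost without the 96 hpf copper array and without either 24 hpf array. It was also lost with 75th-percentile scaling (−1.47) and with normexp background correction (−0.37).

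The best known ligand of the group, fgf8a, the gene of the acerebellar mutant that lacks the midbrain-hindbrain boundary, remained well above background at both ages. Its signals were 9.97 in copper embryos and 10.02 in control embryos at 96 hpf, and 10.99 in copper embryos and 11.98 in control embryos at 24 hpf. It fell by 1.49 on the log2 scale (SE 0.41, adjusted p = 0.0214), on both of its probes, and the call was lost without the 24 hpf control array. The fgf10b gene had 5.44 in copper embryos and 4.83 in control embryos at 96 hpf, against 6.51 in copper embryos and 7.28 in control embryos at 24 hpf, a fall of 3.39-fold (adjusted p = 0.0342) that was lost without either control array and with 75th-percentile scaling (−1.41). With normexp the difference was −0.92 (adjusted p = 0.034).

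The 1 FGF ligand gene that rose was fgf23, whose mammalian counterpart is a hormone of phosphate balance. It had 5.33 in copper embryos and 4.58 in control embryos at 96 hpf, against 2.22 in copper embryos and 2.37 in control embryos at 24 hpf. The 24 hpf arrays were not well above background, and fgf23 was at least 1.99-fold higher at 96 hpf (log2 means 4.96 at 96 hpf and 2.30 at 24 hpf, adjusted p = 0.00698). Its normexp difference was smaller than this bound, 0.45 on the log2 scale (adjusted p = 0.0418).

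The ligand genes fgf10a and fgf24, known from the pectoral fin bud, did not pass the test. The fgf10a gene had 10.24 in copper embryos and 10.15 in control embryos at 96 hpf and 9.76 in copper embryos and 10.40 in control embryos at 24 hpf, so the ages overlapped (difference 0.11, SE 0.42, adjusted p = 0.87). The fgf24 gene had 6.91 in copper embryos and 6.42 in control embryos at 96 hpf and 5.73 in copper embryos and 6.19 in control embryos at 24 hpf (difference 0.70, SE 0.52, adjusted p = 0.342). The other 12 ligand genes had age differences between −0.79 (fgf22) and 0.97 (fgf6a).

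The intracellular FGFs, also called FGF homologous factors, are not secreted and in mammals modulate voltage-gated sodium channels of excitable cells. All 6 detected genes had a higher mean at 96 hpf, under all 3 normalizations and with the mean of the probes. Of them 2 passed the test (33.3%, against 17.3% of all genes higher), and fgf12a passed the filter through the 96 hpf arrays alone. Among all 12332 genes 5643 had a higher mean at 96 hpf with quantile normalization. For fgf12a the signals were 8.63 in copper embryos and 7.99 in control embryos at 96 hpf, against 3.42 in copper embryos and 3.77 in control embryos at 24 hpf, where neither array was well above background. It was at least 20.4-fold higher at 96 hpf (log2 means 8.31 at 96 hpf and 3.60 at 24 hpf, adjusted p = 0.000159), the largest bound among the 88 genes. The normexp difference of fgf12a was smaller than this bound, 2.41 on the log2 scale (adjusted p = 0.000644). The fgf13b gene had 11.28 in copper embryos and 11.44 in control embryos at 96 hpf and 9.48 in copper embryos and 9.99 in control embryos at 24 hpf, and rose by 1.63 on the log2 scale (SE 0.40, adjusted p = 0.0118). Of the 2 neuron markers, snap25a rose by 2.70 (adjusted p = 0.000179), while elavl3 differed by 0.11 (adjusted p = 0.896). Their summed signal was 34557 in copper embryos and 25023 in control embryos at 96 hpf, against 4321 in copper embryos and 5227 in control embryos at 24 hpf, and the part of these markers in the result was not tested. The other 4 genes (fgf11a, fgf12b, fgf13a and fgf14) differed by 0.32 to 0.88.

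Of the 7 FGF receptor genes, fgfr4 alone passed by its brightest probe, and it fell (14.3%, against 15.1% of all genes lower). It had 11.01 in copper embryos and 11.54 in control embryos at 96 hpf, against 12.68 in copper embryos and 12.21 in control embryos at 24 hpf, so the ages did not overlap. It fell by 1.17 on the log2 scale (SE 0.38, adjusted p = 0.0401), and the call was lost without either copper array. The fgfr3 gene, known for its part in skeletal growth, had 8.05 in copper embryos and 8.90 in control embryos at 96 hpf. At 24 hpf it had 9.02 in copper embryos and 9.80 in control embryos (difference −0.94, SE 0.44, adjusted p = 0.135). It passed when its probes were averaged (−1.36). Dimmer probes of fgfr1a (−1.97, adjusted p = 0.0183), fgfr2 (−1.30, adjusted p = 0.0424) and fgfr3 (−1.78, adjusted p = 0.0203) also passed in the same limma fit. The second probe of fgfr4 did not pass (−1.51, adjusted p = 0.0833).

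For fgfr2 and fgfrl1b the choice of probe set the direction. The brightest probe of fgfr2 had 14.16 in copper embryos and 14.17 in control embryos at 96 hpf and 13.38 in copper embryos and 14.24 in control embryos at 24 hpf, a difference of 0.36 (adjusted p = 0.398), while its 5 other probes had differences between −1.36 and −0.71. The brightest fgfrl1b probe differed by 0.73 (adjusted p = 0.16) and its other probe by −0.05. Both probes of fgfr1a were lower at 96 hpf (−0.27 and −1.97), and the brighter one had 9.74 in copper embryos and 10.05 in control embryos at 96 hpf and 10.37 in copper embryos and 9.95 in control embryos at 24 hpf (adjusted p = 0.68). The remaining receptor genes, fgfr1b and the kinase-lacking fgfrl1a, did not pass by their brightest probes either.

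In the BMP and GDF ligands, 2 of 15 detected genes fell (13.3%, against 15.1% of all genes) and none rose (0%, against 17.3%). The bmp7a gene, whose mutant snailhouse is dorsalized, had 2.00 in copper embryos and 2.51 in control embryos at 96 hpf, both not well above background, against 5.36 in copper embryos and 5.79 in control embryos at 24 hpf. It was at least 2.39-fold lower at 96 hpf (log2 means 2.26 at 96 hpf and 5.57 at 24 hpf, adjusted p = 0.0017), and both of its probes were lower. Under normexp bmp7a differed by less than this bound, −0.72 on the log2 scale (adjusted p = 0.00853). The gdf11 gene, which in mice patterns the trunk-to-tail axis, had 3.08 in copper embryos and 4.63 in control embryos at 96 hpf and 7.10 in copper embryos and 8.00 in control embryos at 24 hpf. It was lower at 96 hpf (adjusted p = 0.000629), but only 1 of the 2 arrays at 96 hpf, the control array, was well above background. The difference of the means, −3.70, takes in the dim array, and with normexp it was −1.62 (adjusted p = 0.00201).

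The partners of bmp7a in early dorsoventral patterning, bmp2b and bmp4, did not pass. The bmp2b gene had 7.67 in copper embryos and 7.93 in control embryos at 96 hpf and 8.24 in copper embryos and 7.66 in control embryos at 24 hpf (difference −0.15, SE 0.48, adjusted p = 0.851). The bmp4 gene had 11.37 in copper embryos and 11.50 in control embryos at 96 hpf and 10.97 in copper embryos and 11.80 in control embryos at 24 hpf (difference 0.05, SE 0.38, adjusted p = 0.935). By these brightest probes the ages overlapped in both genes, and the sign of both turned with 75th-percentile scaling. The other probes of bmp4 were lower at 96 hpf (−0.91 and −0.82), and the other bmp2b probe differed by 0.11, so the direction of each gene depended on the probe.

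The gdf6a gene, which acts in the dorsal retina, had 10.68 in copper embryos and 10.67 in control embryos at 96 hpf and 10.65 in copper embryos and 11.95 in control embryos at 24 hpf (difference −0.63, SE 0.43, adjusted p = 0.303). All 4 of its probes were lower at 96 hpf, by 0.63 to 1.54, and their mean passed (−1.17). The maternal ligand gene gdf3 had 9.87 in copper embryos and 9.19 in control embryos at 96 hpf and 9.04 in copper embryos and 9.54 in control embryos at 24 hpf (adjusted p = 0.745). The oocyte ligand gene gdf9 had 3.11 in copper embryos and 3.74 in control embryos at 96 hpf, not well above background, and 4.18 in copper embryos and 5.13 in control embryos at 24 hpf (at least 1.26-fold lower at 96 hpf, adjusted p = 0.121).

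Of 6 TGF-beta and activin ligand genes, 1 rose (16.7%, against 17.3% of all genes) and none fell (0%, against 15.1%). The gene that rose was inhbab, which encodes an activin subunit. It had 9.02 in copper embryos and 8.47 in control embryos at 96 hpf, against 6.16 in copper embryos and 6.92 in control embryos at 24 hpf, a rise of 2.21 on the log2 scale (SE 0.51, adjusted p = 0.00929). Its paralog inhbaa had 9.53 in copper embryos and 9.47 in control embryos at 96 hpf and 7.77 in copper embryos and 8.74 in control embryos at 24 hpf (difference 1.24, SE 0.47, adjusted p = 0.0696). The ages of inhbaa did not overlap, and it passed with normexp background correction (1.62) and with its 4 probes averaged (1.40). The other activin gene, inhbb, had 11.52 in copper embryos and 11.97 in control embryos at 96 hpf and 11.78 in copper embryos and 12.18 in control embryos at 24 hpf (adjusted p = 0.647).

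No TGF-beta gene passed. The tgfb1a gene had 5.94 in copper embryos and 6.15 in control embryos at 96 hpf and 6.79 in copper embryos and 6.97 in control embryos at 24 hpf (difference −0.84, adjusted p = 0.231). The tgfb2 gene had 8.41 in copper embryos and 7.75 in control embryos at 96 hpf and 8.66 in copper embryos and 8.30 in control embryos at 24 hpf (difference −0.40, adjusted p = 0.548), and tgfb3 differed by 0.54 (adjusted p = 0.298) with 11.81 in copper embryos and 12.29 in control embryos at 96 hpf and 11.63 in copper embryos and 11.40 in control embryos at 24 hpf.

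Among 13 receptor genes of the BMP, activin and TGF-beta superfamily, 2 rose (15.4%, against 17.3% of all genes) and 1 fell (7.69%, against 15.1%). The type II receptor gene bmpr2b had 9.78 in copper embryos and 9.30 in control embryos at 96 hpf, against 7.30 in copper embryos and 7.28 in control embryos at 24 hpf, a rise of 4.76-fold (log2 difference 2.25, SE 0.46, adjusted p = 0.00478). The acvrl1 gene, which encodes a type I receptor of blood vessel endothelium, had 12.07 in copper embryos and 11.90 in control embryos at 96 hpf and 10.50 in copper embryos and 10.96 in control embryos at 24 hpf. It rose by 2.39-fold (log2 difference 1.25, SE 0.38, adjusted p = 0.0297), and its call was lost without either copper array. In the other direction, the type I receptor gene bmpr1ba had 9.96 in copper embryos and 10.14 in control embryos at 96 hpf and 11.75 in copper embryos and 11.93 in control embryos at 24 hpf. It fell by 1.79 on the log2 scale (SE 0.38, adjusted p = 0.00584), and all 3 of its probes were lower at 96 hpf.

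The other receptor genes were between −1.19 (acvr2aa) and 0.73 (acvr1ba) in age difference. The type II activin receptor gene acvr2aa had 5.57 in copper embryos and 5.79 in control embryos at 96 hpf and 6.60 in copper embryos and 7.14 in control embryos at 24 hpf (adjusted p = 0.1), and its other probe had the opposite sign (0.45). The type I receptor gene acvr1l, whose mutant lost-a-fin is dorsalized, had 11.42 in copper embryos and 11.81 in control embryos at 96 hpf and 12.06 in copper embryos and 12.07 in control embryos at 24 hpf (adjusted p = 0.368). The type I receptor gene bmpr1aa had 13.18 in copper embryos and 13.38 in control embryos at 96 hpf and 13.40 in copper embryos and 14.09 in control embryos at 24 hpf (adjusted p = 0.265).

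Of the 10 Smad genes 2 fell with age (20%, against 15.1% of all genes), and smad10a of these passed the filter through the 24 hpf arrays alone. By the brightest probes 9 of 10 had a mean at 96 hpf below that at 24 hpf, beside 6689 of all 12332 genes. With normexp background correction 8 of 10 lay below. The smad5 gene, which carries BMP signals and whose mutant somitabun is dorsalized, had 12.68 in copper embryos and 13.00 in control embryos at 96 hpf, against 13.86 in copper embryos and 13.99 in control embryos at 24 hpf. It fell by 1.09 on the log2 scale (SE 0.29, adjusted p = 0.0171), with all 5 probes between −1.30 and −1.05, and its call was lost without the 24 hpf control array or without the 96 hpf copper array. For smad10a the signals were 3.78 in copper embryos and 2.52 in control embryos at 96 hpf, not well above background, and 5.05 in copper embryos and 5.36 in control embryos at 24 hpf. That was at least 1.85-fold lower at 96 hpf (adjusted p = 0.0266), a call lost without either 24 hpf array, without the 96 hpf control array, with 75th-percentile scaling (−1.68) and with normexp (−0.48).

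The other Smads did not pass. The second BMP-responsive Smad gene, smad1, had 8.56 in copper embryos and 8.78 in control embryos at 96 hpf and 9.53 in copper embryos and 9.15 in control embryos at 24 hpf (difference −0.68, adjusted p = 0.286). Of the genes that carry activin and TGF-beta signals, smad2 had 7.29 in copper embryos and 7.40 in control embryos at 96 hpf and 7.98 in copper embryos and 7.68 in control embryos at 24 hpf (difference −0.48, adjusted p = 0.484). Its relative smad3a had 6.63 in copper embryos and 6.68 in control embryos at 96 hpf and 7.17 in copper embryos and 7.77 in control embryos at 24 hpf (difference −0.82, adjusted p = 0.238). The ages did not overlap in these 3 genes, as in 64.8% of the 88 genes and 73.8% of all genes. The smad3b gene had 8.19 in copper embryos and 8.78 in control embryos at 96 hpf and 9.07 in copper embryos and 9.11 in control embryos at 24 hpf (difference −0.60, adjusted p = 0.345).

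The shared partner gene smad4a had 4.45 in copper embryos and 4.82 in control embryos at 96 hpf and 5.61 in copper embryos and 5.72 in control embryos at 24 hpf (difference −1.03, adjusted p = 0.168). This brightest probe was not well above background on the 96 hpf copper array. Its other probe, well above background on all 4 arrays, had the opposite sign (0.54), so the direction of smad4a depended on the probe. Smads of the inhibitory kind block the receptors, and none of the 3 genes passed. The smad6a gene had 10.70 in copper embryos and 11.02 in control embryos at 96 hpf and 11.18 in copper embryos and 10.99 in control embryos at 24 hpf (difference −0.22, adjusted p = 0.706), so the ages overlapped. The smad6b gene had 10.06 in copper embryos and 10.27 in control embryos at 96 hpf and 10.49 in copper embryos and 10.36 in control embryos at 24 hpf (difference −0.26, adjusted p = 0.669). The ages overlapped in smad7, with 11.57 in copper embryos and 11.88 in control embryos at 96 hpf and 10.87 in copper embryos and 11.58 in control embryos at 24 hpf (difference 0.50, adjusted p = 0.333).

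Of the 5 detected noggin and chordin family genes, which encode secreted proteins that bind BMPs, nog3 alone rose (20%, against 17.3% of all genes). It had 9.46 in copper embryos and 9.89 in control embryos at 96 hpf, against 7.29 in copper embryos and 7.43 in control embryos at 24 hpf, a rise of 4.98-fold (log2 difference 2.32, SE 0.45, adjusted p = 0.00385). The nog1 gene had 9.66 in copper embryos and 9.70 in control embryos at 96 hpf and 10.05 in copper embryos and 10.85 in control embryos at 24 hpf (difference −0.77, adjusted p = 0.197), and nog2 had 11.42 in copper embryos and 11.31 in control embryos at 96 hpf and 10.50 in copper embryos and 11.53 in control embryos at 24 hpf (difference 0.35, adjusted p = 0.561). The dorsal organizer gene chrd, chordin itself, had 4.73 in copper embryos and 5.09 in control embryos at 96 hpf and 5.36 in copper embryos and 5.07 in control embryos at 24 hpf, so the ages overlapped (difference −0.30, adjusted p = 0.715).

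Of the 6 genes matched by name only, bmp1b and tgfbi rose (33.3%, against 17.3% of all genes) and tgfbrap1 fell (16.7%, against 15.1%). The bmp1b gene, for a metalloprotease that in other vertebrates cleaves procollagen and chordin, had 10.60 in copper embryos and 10.22 in control embryos at 96 hpf and 8.53 in copper embryos and 9.33 in control embryos at 24 hpf (2.79-fold higher at 96 hpf, adjusted p = 0.0332). The matrix protein gene tgfbi had 15.59 in copper embryos and 15.98 in control embryos at 96 hpf and 14.64 in copper embryos and 14.81 in control embryos at 24 hpf (2.08-fold higher at 96 hpf, adjusted p = 0.00558). The call for bmp1b was lost without either copper array and that for tgfbi without the 24 hpf copper array. The tgfbrap1 gene, which encodes a TGF-beta receptor-associated protein, had 4.78 in copper embryos and 5.33 in control embryos at 96 hpf and 7.45 in copper embryos and 7.11 in control embryos at 24 hpf (4.69-fold lower at 96 hpf, adjusted p = 0.00959). With normexp its difference was −1.12 on the log2 scale (adjusted p = 0.0116).

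**Figure D2:**
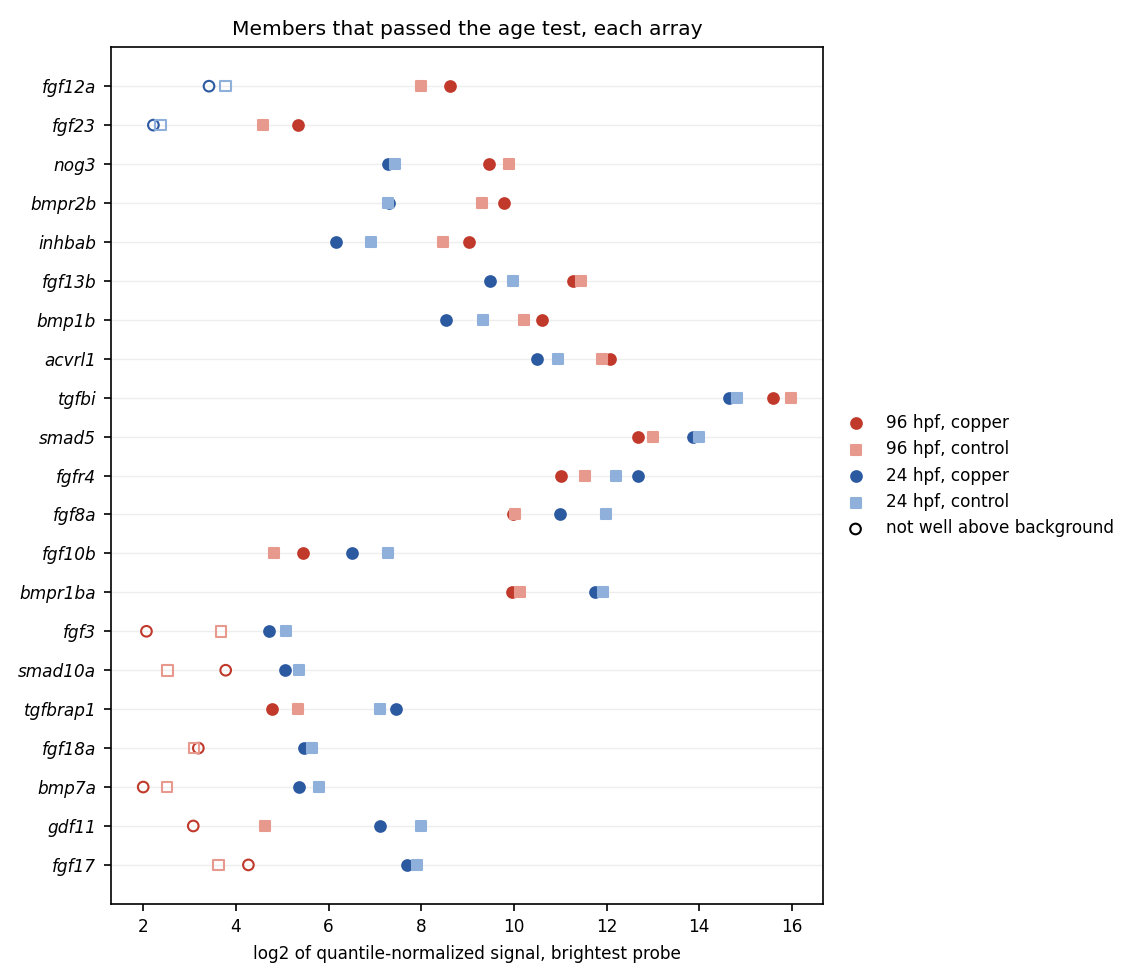
Signal (log2, quantile-normalized, brightest probe) on each of the 4 arrays for the 21 genes that passed the age test, with red for 96 hpf and blue for 24 hpf, circles for copper and squares for control, and open symbols where a probe was not well above background. In each of the 21 genes both 96 hpf arrays lie on the same side of both 24 hpf arrays, with the widest gap for fgf12a and the narrowest for fgfr4. The 21 genes were picked by their age difference on these same arrays, so this separation adds no evidence. Without that choice the ages did not overlap in 64.8% of the 88 genes and 73.8% of all genes.

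Other genes of these pathways, taken from a list of 73 targets, modulators and Nodal genes of which 51 were detected, gave 10 higher (19.6%, against 17.3% of all genes) and 10 lower (19.6%, against 15.1%) at 96 hpf. The activin-binding protein gene fstl3 had 12.71 in copper embryos and 11.49 in control embryos at 96 hpf, against 4.25 in copper embryos and 4.96 in control embryos at 24 hpf (log2 difference 7.50, adjusted p = 1.07e-05). The myostatin gene mstnb, a ligand that restrains muscle growth, had 9.93 in copper embryos and 9.11 in control embryos at 96 hpf and 4.94 in copper embryos and 5.69 in control embryos at 24 hpf (4.20, adjusted p = 0.00033). The FGF feedback inhibitor gene spred3 rose by 2.66 (adjusted p = 0.00104), and the connective tissue growth factor gene ccn2b, not well above background at 24 hpf, was at least 2.4-fold higher at 96 hpf (adjusted p = 0.0019).

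The largest falls of this list were those of lft1, lft2 and tdgf1 of the Nodal branch, which acts in the gastrula and in left-right patterning. Of the 6 detected Nodal genes these 3 fell, against 15.1% of all genes lower. The others, ndr1 (adjusted p = 0.373), foxh1 (adjusted p = 0.133) and mixl1 (adjusted p = 0.258), did not pass. Both lft1 and ndr1 passed the filter through the 24 hpf arrays alone. The filter favours a fall in such genes, so the count is not read as a trait of the Nodal genes. The Nodal inhibitor gene lft1 had 3.68 in copper embryos and 3.08 in control embryos at 96 hpf, not well above background, against 9.17 in copper embryos and 10.87 in control embryos at 24 hpf, at least 52-fold lower at 96 hpf (adjusted p = 4.94e-05). Its relative lft2 fell by 4.55 on the log2 scale (adjusted p = 0.000122). The Nodal co-receptor gene tdgf1 fell by 2.96 (adjusted p = 0.00119), and the BMP co-receptor gene hjv fell by 1.96 (adjusted p = 0.00244).

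The comparison of copper with control at 24 hpf rests on 1 array for each treatment, so it has no test and no replicate check. By the brightest probes, 61 of the 84 comparable genes (those with a measured difference or a bound) lay below 0 with copper and 23 above, and among 12007 such genes of the whole array 8539 lay below and 3464 above. The median over all 88 was −0.36, beside −0.26 for all genes. Past 2-fold, 2 were higher (2.38%, against 3.11% of all genes) and 5 were lower (5.95%, against 5.91% of all genes). Thus the share past 2-fold was close to that of the whole array. The split also depended on the scaling. Of all genes past 2-fold at 24 hpf, 34.5% were higher with quantile normalization, 67.4% with 75th-percentile scaling and 48.8% with normexp.

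Among the ligands, 16 of 18 comparable FGF genes and 12 of 15 BMP and GDF genes were below 0 with copper at 24 hpf, with medians of −0.64 and −0.50. With 75th-percentile scaling these were 13 of 19 FGF genes and 9 of 15 BMP and GDF genes, with medians of −0.31 and −0.27. The receptor genes of the superfamily had 10 of 13 below 0 by the brightest probes and 6 of 13 below 0 with the mean of the probes. Smads had 6 of 10 below 0 by the brightest probes and 3 of 10 with 75th-percentile scaling, so the sign of that family was not stable. The copper array at 24 hpf was the brightest of the 4 before scaling, with a median raw signal of 364.6, against 161.7 on the control array at 24 hpf. Its part in these differences was not tested.

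The ligand gene fgf8b, the second fgf8 copy, had 7.97 in copper embryos and 9.19 in control embryos at 24 hpf, 2.33-fold lower with copper, and its other probe differed by −0.22. That difference was −0.94 with 75th-percentile scaling, −0.93 with normexp and −0.72 with the mean of the probes, each under 2-fold. The authors' deposited table places the brighter probe at chr1:31097308-31097367 on Zv9, plus strand. Its paralog fgf8a had 10.99 in copper embryos and 11.98 in control embryos at 24 hpf, a difference of −0.99 that fell just short of 2-fold, and its other probe differed by −0.43.

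The fgf21 gene, a metabolic hormone in mammals, had 4.69 in copper embryos and 5.72 in control embryos at 24 hpf, 2.05-fold lower with copper on its single probe (chr3:27132152-27132211 on Zv9, minus strand, in the authors' deposited table). That difference was −0.63 with 75th-percentile scaling and −0.44 with normexp. The ligand gene fgf16 had 5.97 in copper embryos and 4.79 in control embryos at 24 hpf, 2.26-fold higher with copper on its single probe, and 0.42 on the log2 scale with normexp. The fgf6a gene had 4.37 in copper embryos and 2.93 in control embryos at 24 hpf, where the control array was not well above background and the signal in copper embryos lay under the bound, so no fold is given.

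The gdf6a gene had 10.65 in copper embryos and 11.95 in control embryos at 24 hpf, 2.47-fold lower with copper by its brightest probe (chr16:41792191-41792250 on Zv9, minus strand, in the authors' deposited table). Its 3 other probes differed by −0.13, 0.03 and 0.82. The noggin gene nog2 had 10.50 in copper embryos and 11.53 in control embryos at 24 hpf, 2.04-fold lower with copper by its brightest probe, while its other probes differed by −0.18 and 0.60. For both genes the mean of the probes was close to no change, at −0.14 for gdf6a and −0.20 for nog2. With normexp nog2 differed by −0.89.

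Of the receptor genes, bmpr2a, for a type II BMP receptor, had 4.71 in copper embryos and 5.86 in control embryos at 24 hpf, 2.21-fold lower with copper, and its other probe was also lower (−0.89). With normexp bmpr2a differed by −0.41. The type I activin receptor gene acvr1ba had 9.07 in copper embryos and 7.80 in control embryos at 24 hpf, 2.4-fold higher with copper on its single probe (chr23:28043334-28043393 on Zv9, minus strand, in the authors' deposited table). It stayed past 2-fold under all 3 normalizations.

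Probes of the same gene were closer to each other at 96 hpf than at 24 hpf. Among 50 genes that had several detected probes, the copper difference of those probes lay at least 1 log2 unit apart in 2 genes (4%) at 96 hpf, against 17 genes (34%) at 24 hpf. For all 7096 such genes of the array the shares were 5.19% at 96 hpf and 31.2% at 24 hpf. The brightest probe was the lowest of its gene in 36 of the 50 genes at 24 hpf and the highest in 10. For acvr1l the brighter probe differed by −0.00 and the dimmer one by 2.08. The 2 probes of fgf13a differed by 0.25 and 2.77, those of fgfr4 by 0.47 and 2.02, and those of bmpr1aa by −0.69 and 1.60, brighter probe first. The 6 probes of fgfr2 ran from −0.88 to 1.85. Among the 161 detected probes of the 88 genes, 157 could be compared at 24 hpf. With copper 15 of these were 2-fold higher (9.55%, against 8.73% of 34698 probes of the array) and 5 were 2-fold lower (3.18%, against 5.93%), the reverse order of the count by brightest probes.

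At 96 hpf, again with 1 array for each treatment and no test, these genes differed little between copper and control embryos. By the brightest probes, none of 79 comparable genes was 2-fold higher (0%, against 5.56% of all genes), and 1, fgf11a, was 2-fold lower (1.27%, against 1.69% of all genes). Dimmer probes of fgfr3 (−1.19) and acvr1l (−1.03), well above background on all 4 arrays, were also past 2-fold lower, while no detected probe was 2-fold higher. The median was −0.05, the same as for all genes. The intracellular FGF gene fgf11a had 4.70 in copper embryos and 6.12 in control embryos at 96 hpf, 2.67-fold lower with copper on its single probe (chr7:23692495-23692554 on Zv9, plus strand, in the authors' deposited table), and −0.58 with normexp. The gdf11 gene had 3.08 in copper embryos and 4.63 in control embryos at 96 hpf, but the copper array was not well above background and the bound was 1.05-fold lower with copper. The fgf3 and smad10a genes, which the authors' deposited table lists at 96 hpf, gave no signal well above background in copper or control embryos of that age, so no fold is given for them.

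Small differences at 96 hpf leaned up in the FGF ligands and down in the Smads, families singled out after seeing the data. Of 16 comparable FGF ligand genes 12 were above 0 with copper, at a median of 0.21, and all 9 comparable Smad genes were below 0, at a median of −0.26. Among all genes 5293 lay above 0 and 6724 below. The downward lean was not particular to the Smads. Of 6 comparable FGF receptor genes 5 were below 0 (median −0.29), as were 5 of the 6 genes matched by name only (median −0.30). For the FGF ligands the count was 10 of 16 with 75th-percentile scaling, 13 of 16 with normexp and, with dim genes included, 14 of 20 with the mean of the probes. For the Smads it was 9 of 9 with both other normalizations and 8 of 10 with the mean of the probes. Of the FGF ligand genes well above background, fgf19 (6.53 in copper embryos and 5.79 in control embryos) and fgf23 (5.33 in copper embryos and 4.58 in control embryos) had the largest difference, 0.74 each. The fgfr3 gene was the lowest of the FGF receptors at 96 hpf, with 8.05 in copper embryos and 8.90 in control embryos (−0.86 on the log2 scale), and it was also lower at 24 hpf (−0.78). The tissue markers that differed at 96 hpf, given above, moved on the same 2 arrays, and their part in these differences was not tested.

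**Figure D3:**
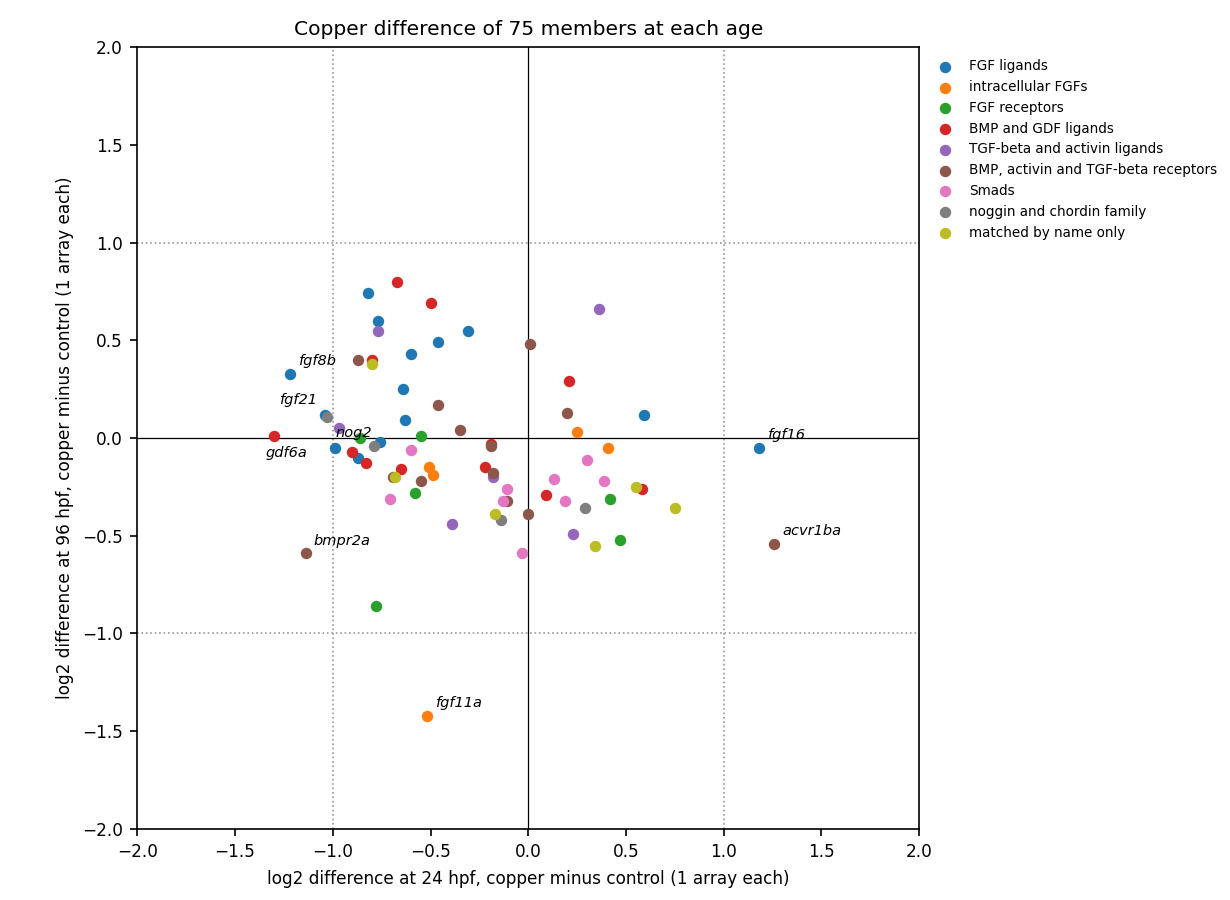
Copper difference (log2, copper minus control, 1 array each) at 24 hpf on the horizontal axis and at 96 hpf on the vertical axis for the 75 genes comparable at both ages, coloured by family, with dotted lines at 2-fold and gdf11 and smad4a drawn at their bounds at 96 hpf. The labelled points are the 8 genes past 2-fold at 1 age, 7 at 24 hpf and fgf11a at 96 hpf, and no point lies past 2-fold on both axes.

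A copper change of like size at both ages was tested over the 4 arrays in the same limma model. None of the 88 genes passed, and none of the 36026 probes of the array did (0%), while an unadjusted p under 0.05 was reached by 710 probes. No adjusted p of the array was below 0.9999. Among the 88 genes 1, gdf11, was under that unadjusted level, with a difference of −1.23 that includes the 96 hpf copper array on which it was not well above background.

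Among 50 comparable genes of the other pathway list, 1 was 2-fold higher with copper at 24 hpf (2%, against 3.11% of all genes) and 4 were 2-fold lower (8%, against 5.91%). The lower ones were lft1 (9.17 in copper embryos and 10.87 in control embryos, 3.25-fold), the activin-binding follistatin gene fsta (11.80 in copper embryos and 13.45 in control embryos, 3.15-fold), the Nodal ligand gene ndr1 (4.13 in copper embryos and 5.28 in control embryos, 2.23-fold) and the BMP antagonist gene nbl1 (9.18 in copper embryos and 10.26 in control embryos, 2.13-fold). The second probe of fsta differed by −0.30, and the probes of nbl1 ran from −1.09 to −0.25. The FGF feedback inhibitor gene spry1 had 5.89 in copper embryos and 3.31 in control embryos, the control array not well above background, and was at least 2.85-fold higher with copper. At 96 hpf 1 of 46 comparable genes (2.17%, against 5.56% of all genes), fstl3, was 2.33-fold higher with copper (12.71 in copper embryos and 11.49 in control embryos), and no gene of the list was 2-fold lower.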

How the data were processed

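Total RNA of whole embryos was measured on 4 one-colour arrays, 1 for each group. Per the labels and the series' design text, RNA was labelled with the Quick Amp Labeling protocol 5.7 and arrays were read with Feature Extraction 11.0.1.1. Each deposited scanner file gives an intensity for every spot, background-subtracted and, per the file headers, not normalized between arrays. The authors' deposited table holds log2 fold changes and absolute fold values (a ratio) from GeneSpring GX 11.5.1, with Zv9 probe positions, and 16 columns of per-array values in it were not used.

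Here the processed signal was taken as log2, repeat spots were averaged, and the 4 arrays were quantile-normalized. Control and outlier-flagged spots were left out, which removed 34 of 43603 probes. RefSeq accessions, looked up in an annotation table of assembly GRCz12tu that served only for symbols, gave 25957 of the 43569 remaining probes a name (13366 genes), and 17612 had none. The tests covered the 36026 probes with a signal well above background on 2 or more arrays. The 88 genes and the other lists were chosen with earlier results of these data known. Age and copper were fitted as additive terms with limma 3.58.1 (lmFit, eBayes with trend, R 4.3.3), with Benjamini-Hochberg adjustment over all probes. The fit was also run on data simulated from its own fitted spread, which cannot test whether that spread is right. A probe dim on 1 side has a bound, from the bright mean against the higher of its own value and the lowest signal well above background. The bounds printed are those of the quantile-normalized signal. Copper at 1 age has 1 array a group and is counted past 2-fold.

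Values on every array are given for genes that passed the age test with all probes of that sign (up to 10 in each direction), for those past 2-fold with copper, and for a list of well known members. Alternatives were 75th-percentile scaling, normexp (offset 50, on median spot and background signals), other filters, the mean of probes, no trend, age alone, each array left out (with age as the single term), a 4-fold threshold and the treatment of the file names. The count of genes past 2-fold on every probe was added after seeing the data, as was the count of family members above and below 0 under each scaling. The number of arrays limits the precision. Python 3.11.15, pandas 2.3.3 and numpy 2.4.6 were used. No sequence is printed, since no sequence table was used here.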

Additional observations from a re-analysis of the deposited data

How the results depend on the processing

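With 1 array a group, copper differences have no replicate check, and dim probes give only bounds. No paired analysis was possible because the groups share only replicate number 1. The median age difference was 0.10 with 75th-percentile scaling, −0.09 with normexp and 0.03 among genes well above background on all 4 arrays. Genes lower at 96 hpf numbered 6 with that filter and 6 with no filter. With each array left out in turn, which also drops the copper term since 3 arrays cannot hold both, 6 to 12 genes were higher and 7 to 11 lower, the fewest lower ones without the 24 hpf control array and the fewest higher ones without the 24 hpf copper array. Of the 21 genes called, 18 were kept with 75th-percentile scaling, 19 with normexp, 13 with the filter on all 4 arrays, 11 with no filter (lost were acvrl1, bmp1b, fgf3, fgf8a, fgf10b, fgfr4, inhbab, smad5, smad10a and tgfbrap1), 21 with the mean of probes, 15 without trend (lost were acvrl1, bmp1b, fgf8a, fgfr4, smad5 and tgfbi), 21 with age alone and 15 to 19 with an array left out. In all 11 of these alternatives bmpr1ba, bmpr2b, fgf13b and nog3 were called. The filter on all 4 arrays left no probe to test for bmp7a, fgf3, fgf12a, fgf17, fgf18a, fgf23, gdf11 and smad10a, so their loss there was fixed in advance. Among the alternatives that kept all 4 arrays, bmp7a, fgf12a, fgf17, fgf18a, fgf23 and gdf11 were lost under that filter alone. Single age differences were followed under 75th-percentile scaling, normexp and the mean of probes for 51 of the 88 genes. Among these 51, the sign changed for bmp2b (0.11), bmp4 (−0.00) and chrd (0.09) with 75th-percentile scaling and for smad4a with normexp (0.17). With the mean of probes it changed for bmp4 (−0.56), fgf10a (−0.13) and fgfr2 (−0.76). None of these had passed the test. Over all 88 genes, 41 lay above 0 with quantile normalization, 46 with 75th-percentile scaling, 42 with normexp and 36 with the mean of probes. Genes outside the 51 thus also changed sign with 75th-percentile scaling and with the mean of probes.

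At 24 hpf the counts of genes 2-fold higher and lower with copper, 2 and 5, were 1 and 1 with normexp, 6 and 3 with the mean of probes, 0 and 0 at 4-fold, and 5 and 2 with the treatment of the file names. With 75th-percentile scaling 4 were higher and 4 lower. Counting genes past 2-fold on every detected probe under the quantile normalization, a count added after seeing the data, gave 2 higher and 1 lower. These were acvr1ba, fgf16 and fgf21, each with a single detected probe, and no gene with several detected probes was among them. The count therefore shows no agreement between probes. The median at 24 hpf was −0.17 with 75th-percentile scaling, −0.18 with normexp, −0.15 with the mean of probes and 0.36 with the treatment of the file names. At 96 hpf the counts, 0 higher and 1 lower, were 0 lower with normexp and at 4-fold, 1 higher and 4 lower with the mean of probes, and 1 higher and 0 lower with the treatment of the file names, where the median was 0.05. The mean of probes applies no bound, so all 88 genes enter its counts, dim ones included. Its 1 higher gene at 96 hpf, smad10a, and fgf3 among its lower ones were not well above background on either array of that age. At 24 hpf it counts fgf6a and chrdl2, for which no fold is given. Of all genes past 2-fold at 96 hpf, 76.7% were higher with quantile normalization, 74.7% with 75th-percentile scaling and 84.7% with normexp. Some changes are built into the settings. The stricter filter leaves fewer genes, the mean of probes takes in dim genes, and the file names turn the sign. The normexp offset of 50 shrinks log2 differences of dim probes. The cause of the changes beyond these was not tested.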

Other observations

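Some probes carry a symbol of these families only in the authors' deposited table and were not named through their accessions, so they are not among the 88 genes. At 24 hpf a bmp3 probe (chr5:41280765-41280824 on Zv9, minus strand, in the authors' deposited table) differed by −1.65 on the log2 scale between copper and control embryos, copper lower. An fgfr1a probe (chr8:53709129-53709194 on Zv9, minus strand, in the authors' deposited table) differed by −1.39 at 24 hpf and by −1.10 at 96 hpf, copper lower at both ages, while the brightest fgfr1a probe among the 88 genes differed by 0.42 at 24 hpf and −0.31 at 96 hpf. A smad9 probe, for a Smad that carries BMP signals, differed by −1.04 at 24 hpf. All of these were well above background on all 4 arrays, each value rests on 1 array for each treatment, and the sign follows the sample labels. An fgf10b probe of the same kind differed by 2.02 at 96 hpf and was well above background on 2 arrays.

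The 24 hpf arrays differed in 1 skeletal marker: the cartilage and notochord collagen gene col2a1a was higher by 2.62 on the log2 scale in copper embryos (signal 21252 in copper embryos and 3459 in control embryos), with no replicate to test it.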
